A study of Mus musculus with 10 samples.

Results

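Mest and 9 other imprinted genes were followed in 10 subcutaneous tumors of B2905-M4, a mouse melanoma line. They are the 10 gene symbols Mest, Igf2, H19, Peg3, Dlk1, Meg3, Plagl1, Cdkn1c, Grb10 and Igf2r, all of which were found among the 29890 genes of the expression table. Mest was noticed for its lower level in tumors overexpressing Adamts7, and the other 9 were listed with it by name, so all group differences of these 10 genes are given as descriptions. Of the tumors, 5 carried Adamts7 overexpression and 5 carried the vector in the same cells. All grew in female C57BL/6J hosts injected at 7 to 8 weeks of age, and none of the animals was given immunotherapy. By the design text, 2 Adamts7 tumors were taken at day 35, 3 of each group at day 45 and 2 vector tumors at day 50, and no tumor is tied to a day, so harvest day and group cannot be told apart. Adamts7 tumors grew faster than vector tumors by the same text, and the labels name neither a clone nor the promoter that drives Adamts7.

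An imprinted gene is read mainly from the copy inherited from one parent, because methylation laid down in the egg or the sperm silences the other copy or its control region. Many imprinted genes act on fetal growth and are turned down after birth, and they lie in clusters in which a paternally and a maternally expressed gene often answer to one control region. Mest, a paternally expressed gene, encodes a hydrolase-like protein of the endoplasmic reticulum and is known for growth in the embryo and for enlargement of fat tissue. Bulk RNA levels do not tell the parental copies apart, and fewer cells of a type and less RNA per cell cannot be told apart in them either.

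RefSeq held promoter windows for 8 of the 10 genes on the build GRCm38.p6, each of 300 bases with 250 before and 50 after a transcription start; H19 and Cdkn1c had no entry. The windows of Mest and of Plagl1 are shown because, of the genes above 1 TPM on average, these spanned the widest range over the tumors. CpG dinucleotides, the sites that imprint methylation occupies, are in capitals. All 3 windows are on the plus strand, at chr6:30733256-30733555 and chr6:30737800-30738099 for Mest and at chr10:13090582-13090881 for Plagl1.
Mest, first start: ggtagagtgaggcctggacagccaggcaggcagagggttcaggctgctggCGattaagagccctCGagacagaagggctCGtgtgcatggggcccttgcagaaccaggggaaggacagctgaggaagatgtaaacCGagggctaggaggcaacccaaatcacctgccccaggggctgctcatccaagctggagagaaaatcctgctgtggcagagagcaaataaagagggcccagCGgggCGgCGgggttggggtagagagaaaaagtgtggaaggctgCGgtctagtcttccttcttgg
Mest, second start: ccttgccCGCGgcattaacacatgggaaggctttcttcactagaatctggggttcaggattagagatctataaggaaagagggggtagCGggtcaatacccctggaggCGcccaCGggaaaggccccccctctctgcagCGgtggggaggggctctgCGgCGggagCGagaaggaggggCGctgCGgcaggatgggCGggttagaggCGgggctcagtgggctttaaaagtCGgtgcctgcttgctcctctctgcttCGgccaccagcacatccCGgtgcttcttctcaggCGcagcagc
Plagl1: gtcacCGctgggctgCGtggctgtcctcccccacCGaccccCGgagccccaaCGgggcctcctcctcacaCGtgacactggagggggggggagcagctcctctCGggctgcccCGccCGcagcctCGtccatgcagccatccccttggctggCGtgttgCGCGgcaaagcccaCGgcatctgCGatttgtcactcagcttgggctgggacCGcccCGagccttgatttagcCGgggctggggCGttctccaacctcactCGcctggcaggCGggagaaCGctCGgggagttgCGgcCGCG

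The Mest window of the second start held 17 CpGs, a number reached by 31.4% of the 32851 windows of this length in the table, and the window of the first start held 8, reached by 48.6%. The Plagl1 window held 26, reached by 16.9%. The most CpGs among these genes, 45, stood before the first start of Grb10, and 1.93% of windows held as many. The hexamer TGCCGC, which the imprint-keeping zinc finger protein ZFP57 binds when it is methylated, was searched on both strands. It was found at 2 places in the second Mest window, at bases 9 to 14 and 184 to 189 and both times as its reverse complement, and 1.53% of all windows held at least as many. The Plagl1 window held 1, and 11.6% of windows held at least 1. Another listed Mest start lies 3 bases after the second, and its window also had 2 matches. Methylation was not measured in these tumors, and a match of letters is a description only.

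Mest also hosts a microRNA gene, Mir335, on its own strand in an intron of its coding transcripts. The 2 mature forms are shown because their precursor is part of the Mest transcript whose level differed; their seeds, bases 2 to 8, are in capitals. They lie on the plus strand of GRCm38.p6 at chr6:30741314-30741336 for the 5p form and chr6:30741354-30741375 for the 3p form. Mature microRNAs are not retained by selection for poly(A) tails and their levels were not measured.
mmu-miR-335-5p: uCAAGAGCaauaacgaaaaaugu
mmu-miR-335-3p: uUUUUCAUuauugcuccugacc

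Expression is given in TPM, a relative transcript abundance scaled per transcript length within each library, so that levels of different genes can be compared. Fold changes are differences of mean log2(TPM + 1), Adamts7 minus vector, which understates changes of low genes. TPM keeps no depth, and the depth of each library is unknown. In the authors' deposited table the mean normalized signal was 3802 for Igf2r and 1436 for Mest but 40.4 for Peg3, 27.3 for Cdkn1c, 15.5 for Dlk1 and 14.8 for Igf2, so these last 4 genes rest on few reads. Adamts7 itself was at 88.5, 96.0, 78.2, 74.8 and 18.2 TPM in the Adamts7 tumors and at 6.49, 6.98, 28.3, 8.57 and 27.6 TPM in the vector tumors, and the value of the tumor labelled Adamts7 5 was under those of vector tumors 3 and 5. Vector tumors 3 and 5 also stood apart in cell markers. The sum of 10 melanocyte markers was 14660 to 25830 TPM in the Adamts7 tumors, against 448 and 2319 TPM in vector tumors 3 and 5 and 10350 to 20080 TPM in the other vector tumors. The sum of 10 T cell markers was at most 42.9 TPM in Adamts7 tumors, whereas vector tumors 3 and 5 had 383 and 293 TPM and the other vector tumors at most 57.1 TPM.

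Mest was at a far lower level in every Adamts7 tumor than in any vector tumor. Its levels were 16.2, 21.2, 19.5, 10.7 and 7.81 TPM in Adamts7 tumors 1 to 5, against 110, 58.8, 56.9, 199 and 65.0 TPM in vector tumors 1 to 5. The groups did not overlap, and the lowest vector tumor was 2.68-fold above the highest Adamts7 tumor. Vector tumors 4 and 1 stood well above the other vector tumors. The means were 15.1 ± 5.71 TPM in Adamts7 tumors and 98.1 ± 60.6 TPM in vector tumors (SD, n = 5 each), with a log2 fold change of -2.53 (SE 0.38). Leaving out 1 tumor at a time gave log2 fold changes between -2.67 and -2.23, the smallest of them without vector tumor 4. Without vector tumors 3 and 5 the log2 fold change of Mest was -2.86, and it was -2.66 when the tumor labelled Adamts7 5 was omitted too. In the authors' deposited table the log2 fold change of Mest was -2.59 (SE 0.41), and Mest was the 1 gene of the 10 called there, beside 5.48% of genes called lower in that table.

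**Figure D1:**
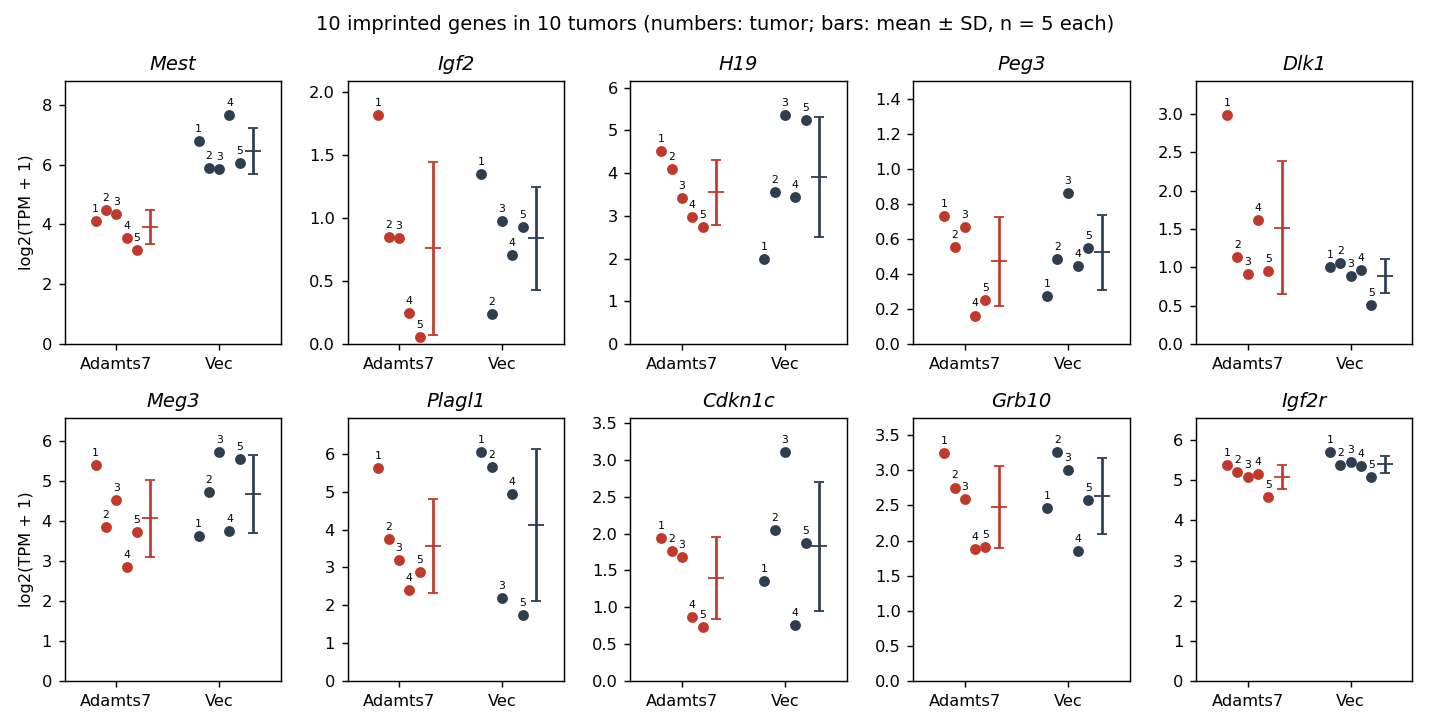
Level of each of the 10 genes in each tumor as log2(TPM + 1); points are tumors with their number, and the bars to the right of the points are mean ± SD (n = 5 each), Adamts7 in red and vector in dark blue. Mest is the gene whose groups do not overlap; in the other 9 genes the 2 groups cover overlapping ranges.

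Of the 10 genes, 8 averaged 1 TPM or more and entered the fit over all genes, which leaves out Igf2 and Peg3. Over the 15276 genes of that fit, limma with Benjamini-Hochberg adjustment at 0.05 called 0.196% lower and 0.0262% higher in Adamts7 tumors. Mest was called lower and none of the 7 other genes was called; since Mest was chosen by this contrast, nothing is read from that count. Without 1 tumor the limma adjusted p of Mest was 0.0785, 0.0869, 0.0749 and 0.125 when Adamts7 tumor 1, 2, 3 or 4 was left out, and 0.0501, 0.0507, 0.0581 and 0.0846 without vector tumor 1, 3, 4 or 5. It was 0.0227 without the tumor labelled Adamts7 5 and 0.0343 without vector tumor 2, the 2 cases in which the call held. By range, Mest was 1 of the 3.78% of tested genes that were lower in all Adamts7 tumors than in any vector tumor, and 1.11% were higher in all of them.

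Mest stood at a different place among the 10 genes in each group. In Adamts7 tumors Mest came behind Igf2r at 33.5 ± 6.58, Meg3 at 18.9 ± 13.7 and Plagl1 at 16.0 ± 18.5 and before H19 at 12.1 ± 6.84 TPM (SD, n = 5), and no pair of neighbours in the order was separated. In vector tumors it had the highest mean, followed by Igf2r at 41.5 ± 6.53, Plagl1 at 30.1 ± 27.8, Meg3 at 29.3 ± 18.6 and H19 at 20.1 ± 17.0 TPM (SD, n = 5). The lowest vector tumor for Mest, at 56.9 TPM, lay above the highest for Igf2r, at 51.2 TPM, while every later pair of neighbours in the order overlapped. Mest made up 8.52% to 19.3% of the summed TPM of the 10 genes in Adamts7 tumors, against 26.9% to 67.2% in vector tumors. The sum of the other 9 genes was between 51.7 and 174 TPM in Adamts7 tumors and between 97.3 and 155 TPM in vector tumors, so those ranges overlapped. Among all tested genes, the mean of Mest stood above 50.2% in Adamts7 tumors and above 89.1% in vector tumors.

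Next to Mest, 2 genes reached the level needed for the fit. Copg2, a coatomer subunit gene that is read towards Mest from the opposite strand, was at 69.7, 72.9, 77.4, 123 and 76.9 TPM in Adamts7 tumors and at 88.3, 74.8, 49.8, 85.6 and 47.7 TPM in vector tumors. The groups overlapped, with a log2 fold change of 0.29 (SE 0.22, limma adjusted p = 0.451). Cep41, a gene for a centrosomal and ciliary protein on the other side of Mest, was at 16.1 ± 2.94 TPM in Adamts7 tumors and 17.1 ± 4.97 TPM in vector tumors (SD, n = 5 each; log2 fold change -0.06, limma adjusted p = 0.888). Of 8 neighbours listed by name, 6 were in the table and these 2 were tested. Of the 2, 0 were called by limma, beside 0.223% of all tested genes, and 0 had an unadjusted p under 0.05, beside 3081 of 15276, so that counts over 2 genes say little. Klf14, an imprinted neighbour expressed from the maternal copy, was listed at 0 TPM in 9 tumors and at 0.04 TPM in Adamts7 tumor 3. The annotations of Mest and Copg2 overlap by 912 bases on opposite strands, and the use of strand in counting is not given by the sources used here, so reads in that stretch may have been given to either gene.

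**Figure D2:**
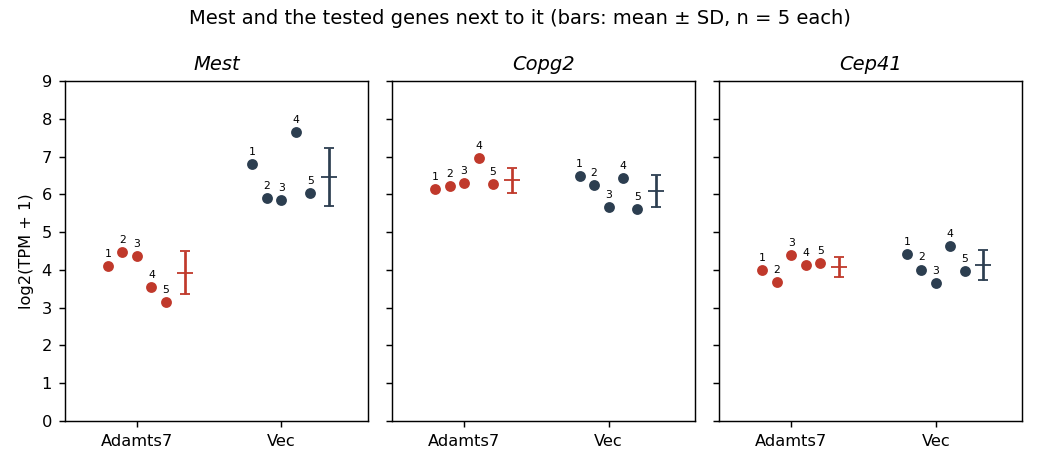
Mest and its 2 tested neighbours Copg2 and Cep41 as log2(TPM + 1) in each tumor, with tumor numbers and mean ± SD (n = 5 each), on one axis. The groups are apart for Mest and overlap for both neighbours.

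Igf2, a paternally expressed growth factor of the fetus, was hardly present. It was at 2.52, 0.80, 0.79, 0.19 and 0.04 TPM in Adamts7 tumors and at 1.55, 0.18, 0.97, 0.63 and 0.90 TPM in vector tumors. Both groups spanned a wide range around the same mean of under 1 TPM. H19, a maternally expressed noncoding RNA controlled together with Igf2, was more abundant, at 21.9, 16.3, 9.75, 6.84 and 5.64 TPM in Adamts7 tumors and 2.99, 10.8, 39.9, 9.94 and 36.9 TPM in vector tumors. Vector tumors 3 and 5 were highest for H19 and vector tumor 1 was lowest, with the Adamts7 tumors between them. The log2 fold change of H19 was -0.37 (SE 0.62), and 0.55 without vector tumors 3 and 5. Igf2r, the maternally expressed receptor that takes IGF2 into lysosomes, was the steadiest of the 10 genes. It was at 41.0, 36.2, 32.6, 34.6 and 23.1 TPM in Adamts7 tumors and at 51.2, 40.6, 42.8, 39.9 and 33.1 TPM in vector tumors, a span of 2.22-fold over all tumors. The groups overlapped, with a log2 fold change of -0.31 (SE 0.16).

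Grb10, an adaptor gene whose protein damps signaling of the insulin and IGF receptors, was at 4.94 ± 2.39 TPM in Adamts7 tumors and 5.54 ± 2.32 TPM in vector tumors (SD, n = 5 each), with a log2 fold change of -0.16 (SE 0.33). Cdkn1c, which encodes the cyclin-dependent kinase inhibitor p57, was between 0.66 and 2.82 TPM in Adamts7 tumors and between 0.69 and 7.61 TPM in vector tumors, highest in vector tumor 3. Its log2 fold change was -0.43 (SE 0.42), and 0.01 without vector tumors 3 and 5. Both genes are expressed mainly from the maternal copy in most tissues. The 2 groups covered much the same range for Grb10. For Cdkn1c they overlapped, with vector tumors 2 and 3, at 3.14 and 7.61 TPM, above every Adamts7 tumor.

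Dlk1 and Meg3 share a cluster in which Dlk1, a Notch-ligand-like membrane protein of progenitor cells, comes from the paternal copy and Meg3, a noncoding RNA, from the maternal one. Dlk1 was at 6.89, 1.20, 0.88, 2.06 and 0.93 TPM in Adamts7 tumors and at 1.00, 1.09, 0.85, 0.95 and 0.42 TPM in vector tumors. Adamts7 tumor 1 was the highest by far, and without it and Adamts7 tumor 4 the groups lay close together. The log2 fold change of Dlk1 was 0.63 (SE 0.38), and in the authors' deposited table it was 1.44 (SE 0.62). Meg3 was at 41.3, 13.4, 21.7, 6.19 and 12.1 TPM in Adamts7 tumors and at 11.2, 25.5, 51.6, 12.5 and 45.7 TPM in vector tumors. The 3 highest tumors for Meg3 were vector tumors 3 and 5 and Adamts7 tumor 1, as for H19. Its log2 fold change was -0.61 (SE 0.54), and 0.03 without vector tumors 3 and 5. Rian, the next maternally expressed noncoding RNA of that cluster, was at 26.1, 10.7, 10.7, 4.86 and 7.17 TPM in Adamts7 tumors and at 6.68, 11.9, 19.5, 7.89 and 23.3 TPM in vector tumors, with the same 3 tumors highest.

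Plagl1 and Peg3 encode zinc finger proteins expressed from the paternal copy; PLAGL1 is known to raise the transcription of other imprinted genes in the mouse. Plagl1 was at 48.6, 12.5, 8.13, 4.30 and 6.30 TPM in Adamts7 tumors and at 65.4, 49.6, 3.56, 29.7 and 2.34 TPM in vector tumors. It spanned 27.9-fold over the tumors, with vector tumors 3 and 5 below every Adamts7 tumor and the other 3 vector tumors above 4 of the 5 Adamts7 tumors. The log2 fold change of Plagl1 was -0.55 (SE 0.92), and -1.98 without vector tumors 3 and 5. In vector tumors 3 and 5, where Plagl1 was lowest and H19 and Meg3 were highest, Mest was at 56.9 and 65.0 TPM, close to its 58.8 TPM in vector tumor 2. Peg3 was at 0.12 to 0.66 TPM in Adamts7 tumors and 0.21 to 0.82 TPM in vector tumors, too low for the fit.

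**Figure D3:**
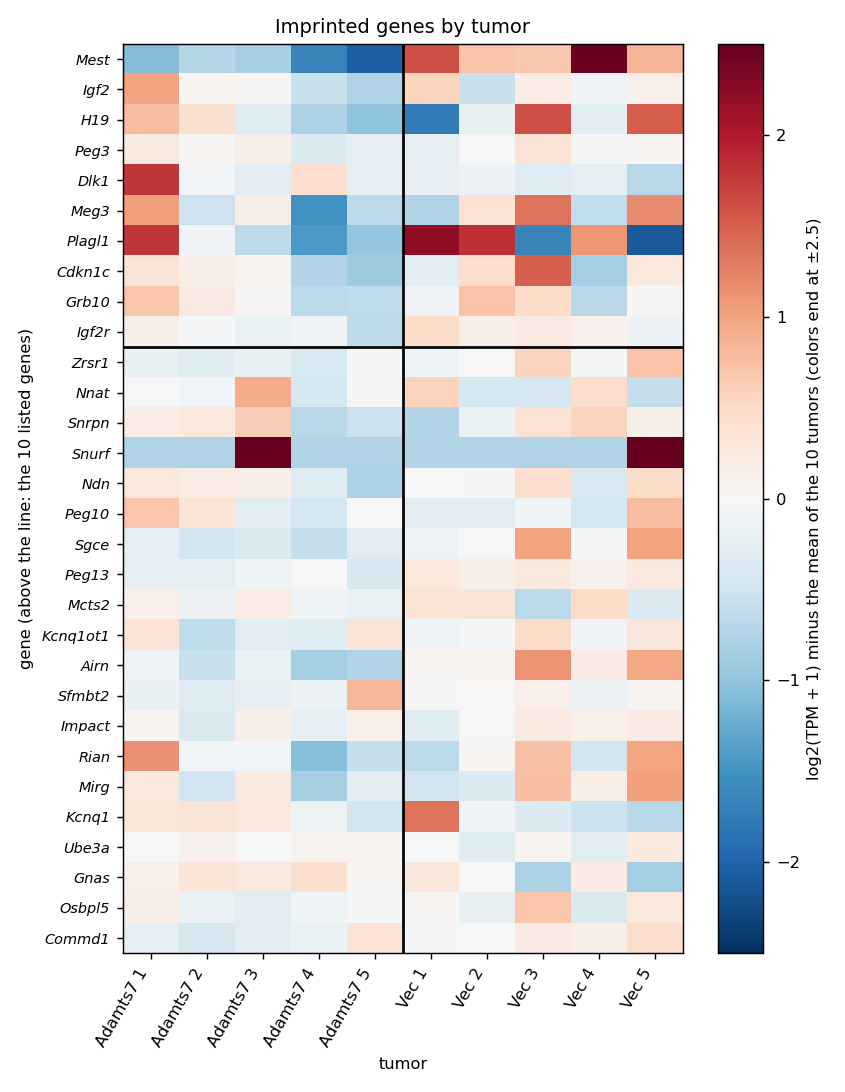
Each cell is log2(TPM + 1) of a gene in a tumor minus that gene's mean over the 10 tumors, red above and blue below, with colors ending at ±2.5; Adamts7 tumors are left of the vertical line and the 10 listed genes above the horizontal one, with the 20 other tested imprinted genes below. Mest is blue in all 5 Adamts7 tumors and red in all 5 vector tumors, while H19, Meg3 and Rian are highest in vector tumors 3 and 5 and Adamts7 tumor 1.

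Other imprinted genes were counted over a list of 39 chosen by name, of which 35 were in the table and 20 were tested. The fit called 0 higher and 0 lower, beside 0.223% called over all tested genes, and 4 of the 20 had an unadjusted limma p under 0.05, as had 3081 of the 15276 genes. The median log2 fold change was -0.14 for the 20 genes and -0.10 for all tested genes. By allele, 3 of 13 paternally expressed and 3 of 7 maternally expressed genes had a log2 fold change above 0. Airn, a paternally expressed noncoding RNA that runs through Igf2r from the opposite strand, was at 5.38 ± 1.49 TPM in Adamts7 tumors and 11.9 ± 4.71 TPM in vector tumors (SD, n = 5 each; log2 fold change -0.98, SE 0.26, limma adjusted p = 0.113). Its overlap with Igf2r makes both values uncertain if strand was not used in counting. In the authors' deposited table, where 7.96% of genes with an adjusted p were called, 1 of 27 genes of this list was called, Airn, with a log2 fold change of -1.04 (SE 0.30).

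Sgce, a paternally expressed sarcoglycan gene, was at 48.0 ± 4.91 TPM in Adamts7 tumors and 87.6 ± 36.1 TPM in vector tumors, with 127 TPM in both vector tumors 3 and 5 and at most 64.3 TPM in the other 3 (SD, n = 5 each; log2 fold change -0.77, limma adjusted p = 0.146). Peg13, a paternally expressed noncoding RNA, was at 30.8 ± 3.40 TPM in Adamts7 tumors and 41.0 ± 1.89 TPM in vector tumors (SD, n = 5 each; log2 fold change -0.41, limma adjusted p = 0.108). Airn, Sgce and Peg13 were the 3 genes of the 20 whose groups did not overlap, beside 4.89% of all tested genes. All were lower in every Adamts7 tumor than in any vector tumor, beside 3.78% of all tested genes in that direction. The list was chosen with earlier results of these data known, so nothing is read from that count. Zrsr1, a splicing factor-like gene, was at 9.61 ± 0.934 TPM in Adamts7 tumors and 13.8 ± 4.03 TPM in vector tumors (SD, n = 5 each; limma adjusted p = 0.219). The most abundant imprinted gene was Gnas, which encodes the stimulatory G protein alpha subunit. It was at 1987 ± 183 TPM in Adamts7 tumors and 1514 ± 527 TPM in vector tumors (SD, n = 5 each), where vector tumors 3 and 5 had 975 and 937 TPM (log2 fold change 0.47, limma adjusted p = 0.287). Commd1, a copper and NF-kB regulator, and Impact, a translation regulator, had log2 fold changes of -0.30 and -0.10 (limma adjusted p = 0.297 and 0.709).

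**Figure D4:**
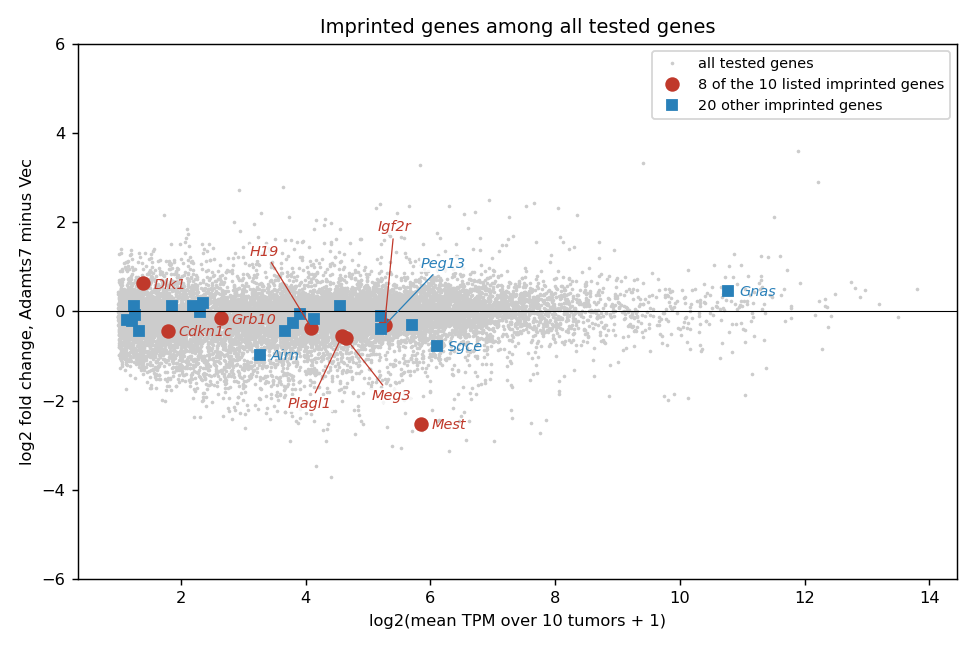
Log2 fold change (Adamts7 minus vector) of every tested gene in gray against log2(mean TPM + 1), with 8 of the 10 listed imprinted genes as red circles and 20 other tested imprinted genes as blue squares. Mest lies at -2.53, and the other marked genes lie between -0.98 for Airn and 0.63 for Dlk1.

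Genes of the IGF pathway, in which IGF2, GRB10 and IGF2R act, were also measured. Of 17 listed, 13 were tested and had a median log2 fold change of -0.30, against -0.10 for all tested genes. The fit called 0 of them, beside 0.223% of all tested genes, and 1 had an unadjusted limma p under 0.05, beside 3081 of 15276. Irs2, an adaptor of the insulin and IGF receptors, was at 26.8 ± 3.99 TPM in Adamts7 tumors and 19.8 ± 5.24 TPM in vector tumors (SD, n = 5 each; limma adjusted p = 0.228). Igfbp2, which encodes an IGF binding protein, was at 1.64 to 8.86 TPM in Adamts7 tumors, and in vector tumors at 103 and 35.1 TPM in tumors 3 and 5 and at most 7.08 TPM in the others. Igfbp7 was at 114 ± 51.2 TPM in Adamts7 tumors and 279 ± 212 TPM in vector tumors, and Igfbp4 at 96.5 ± 32.5 TPM in Adamts7 tumors and 71.5 ± 11.4 TPM in vector tumors (SD, n = 5 each; limma adjusted p = 0.277 and 0.335). Igfbp3 and Igf2bp2, which encodes an RNA-binding protein of Igf2 messages, had log2 fold changes of 0.17 and -0.30 (limma adjusted p = 0.869 and 0.586). Igfbp3 was called higher and Igf2bp2 lower in the fit without vector tumors 3 and 5 and the tumor labelled Adamts7 5. Their log2 fold changes there were 1.09 and -0.89 (limma adjusted p = 0.0409 and 0.0282). That fit was chosen after seeing the data and called 225 of its 14904 tested genes higher and 689 lower.

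Genes that act on DNA methylation, chromatin or imprints had a median log2 fold change of -0.10, the same as all tested genes to 2 decimals. Their list holds genes that remove methylation as well as genes that keep it. All 17 of that list were tested, with 0 called, beside 0.223% of all tested genes, and 1 at an unadjusted limma p under 0.05, beside 3081 of 15276. Dnmt1, the maintenance DNA methyltransferase, was at 71.7 ± 9.92 TPM in Adamts7 tumors and 71.3 ± 31.0 TPM in vector tumors, and Trim28, the corepressor that ZFP57 recruits, at 173 ± 18.8 TPM in Adamts7 tumors and 153 ± 34.1 TPM in vector tumors (SD, n = 5 each; limma adjusted p = 0.824 and 0.473). Smchd1, a chromatin protein that silences imprinted clusters and the inactive X, was at 25.1 ± 4.53 TPM in Adamts7 tumors and 35.1 ± 8.95 TPM in vector tumors (SD, n = 5 each; limma adjusted p = 0.218). Tet1, which oxidizes methylated cytosine, was at 7.32 TPM in the tumor labelled Adamts7 5 and at 1.36 to 2.32 TPM in the other Adamts7 tumors, against 0.69 to 1.5 TPM in vector tumors (limma adjusted p = 0.268). Tet3, a related enzyme, had a log2 fold change of -0.29 (limma adjusted p = 0.338). The Polycomb genes Eed and Ezh2 had log2 fold changes of -0.18 and -0.17 (limma adjusted p = 0.311 and 0.457).

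Some cell type markers were highest in tumors where some of these genes were highest. The 9 adipocyte markers summed to 21.1 to 41.2 TPM in Adamts7 tumors, against 143 and 181 TPM in vector tumors 1 and 4, the 2 highest for Mest, and 24.5 to 51.6 TPM in the other vector tumors. Within the Adamts7 tumors the highest sum, 41.2 TPM, was that of the tumor labelled Adamts7 5, which had the lowest Mest, at 7.81 TPM. Most of the sums of vector tumors 1 and 4 was Fabp4, a fatty acid carrier, at 86.1 and 170 TPM. Vector tumor 1 was the highest of all tumors for 7 of the 9 markers, among them Adipoq, the adiponectin gene, at 3.36 TPM, Plin1, a lipid droplet gene, at 2.56 TPM and Cfd, the adipsin gene, at 31.9 TPM. In vector tumor 4 these were at 0.36, 0.03 and 1.44 TPM. Adipoq was at most 1.49 TPM in Adamts7 tumors and was listed at 0 in Adamts7 tumor 1 and vector tumor 3. Vector tumors 3 and 5 had adipocyte marker sums of 24.5 and 40.9 TPM, inside the range of the Adamts7 tumors, and Mest at 56.9 and 65.0 TPM, above every Adamts7 tumor. Skeletal muscle markers, 10 of 11 of which were in the table, summed to 504 TPM in vector tumor 4, which was highest for Mest, and to at most 10.8 TPM elsewhere. Without vector tumor 4 the log2 fold change of Mest was -2.23. Interferon-gamma induced genes, 15 in number, summed to 568 to 1006 TPM in Adamts7 tumors and 1631 to 6051 TPM in vector tumors, without overlap of the groups. Each of the 15 was lower in all Adamts7 tumors than in any vector tumor, beside 3.78% of all tested genes, and 3 were called lower by limma, beside 0.196%. These 15 genes were listed with earlier results of these data known, so nothing is read from those counts. Within the vector group the order of their sums was another one than for Mest, with 6051 and 5412 TPM in tumors 3 and 5 and 2594 TPM in tumor 4. The part of these cell types and signals in the level of Mest was not tested.

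The same was seen for H19, Meg3 and Rian with the sums of fibroblast and macrophage markers. Adamts7 tumor 1 and vector tumors 5 and 3, the 3 highest tumors for Meg3 and H19, had the highest sums of 10 fibroblast markers, at 1851, 1557 and 1534 TPM, while the other tumors lay between 351 and 1070 TPM. Of the single fibroblast markers, Col3a1, Lum, Pdgfra and Thy1 were highest in these 3 tumors, and the rest of the list was not. Col1a1 was at 193 TPM in vector tumor 3, against 311 TPM in Adamts7 tumor 2. Fap was highest in Adamts7 tumor 4, at 18.0 TPM, and was at 6.05 TPM in vector tumor 5. These 3 tumors were also highest in the sum of 9 macrophage markers, at 1984, 2832 and 3177 TPM, against 414 to 1449 TPM in the other 7. The tumor labelled Adamts7 5 was lowest in both sums and had the lowest Mest, Igf2, Cdkn1c and Igf2r of all tumors. Fibroblast sums ran from 351 to 1851 TPM in Adamts7 tumors and from 470 to 1557 TPM in vector tumors. Keratinocyte markers summed to at most 4.68 TPM in any tumor and endothelial markers to 45.1 to 104 TPM in Adamts7 tumors and 55.2 to 120 TPM in vector tumors. The part of stromal cells in the levels of H19, Meg3 and Rian was not tested.

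**Figure D5:**
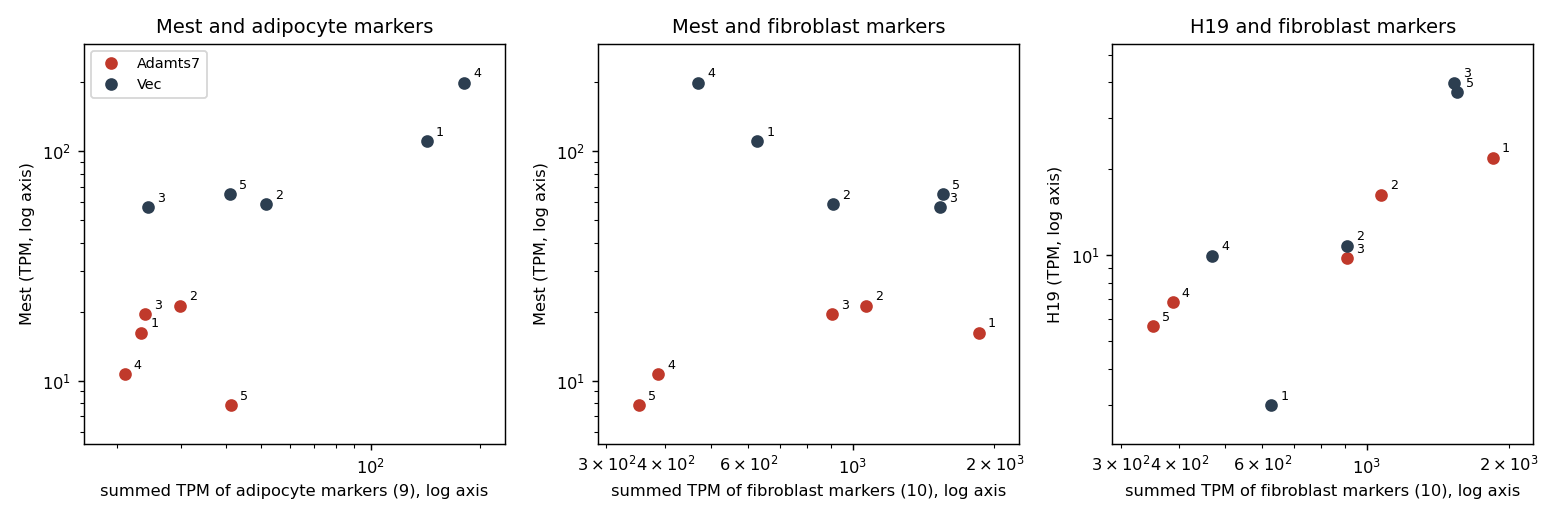
Left and middle, Mest in TPM against the summed TPM of adipocyte and of fibroblast markers; right, H19 against fibroblast markers; all axes are logarithmic, points are tumors with their number, Adamts7 in red and vector in dark blue. Mest lies between 7.81 and 21.2 TPM in Adamts7 tumors and between 56.9 and 199 TPM in vector tumors, and vector tumors 1 and 4 have the highest adipocyte sums. For H19 the groups mix, and the 3 tumors with the highest fibroblast sums are the 3 highest for H19.

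The genes most like Mest in pattern were sought by Pearson's r of log2(TPM + 1) over the 10 tumors, as a measure of likeness that includes the group difference. The 8 highest, without predicted and clone-named genes, were Rida (r = 0.985), Tram2 (0.954), Matn2 (0.949), Phf13 (0.946), Rmi2 (0.941), Ddn (0.937), Pdia4 (0.935) and Nxpe3 (0.933). Rida, a gene for a deaminase of reactive metabolites, was at 16.9, 17.8, 17.5, 13.2 and 14.6 TPM in Adamts7 tumors and 28.1, 23.8, 24.3, 31.4 and 24.0 TPM in vector tumors. It was highest in vector tumors 4 and 1, as Mest was, but over a narrower range. Matn2, which encodes the matrix protein matrilin-2, was at 19.2 to 53.0 TPM in Adamts7 tumors and 68.8 to 154 TPM in vector tumors, and Pdia4, a disulfide isomerase gene of the endoplasmic reticulum, at 165 ± 10.9 TPM in Adamts7 tumors and 240 ± 8.03 TPM in vector tumors (SD, n = 5 each). With each value centred on its group mean, which removes the group difference, the 8 highest were Dynlrb1 (r = 0.944), Layn (0.940), Plekho1 (0.929), Arhgef26 (0.925), Tmem138 (0.920), Rida (0.917), Ccdc189 (0.916) and Kcnn4 (0.910), so that Rida alone was in both groups of 8. On the first measure the other tested members had r between -0.40 for Dlk1 and 0.66 for Igf2r, and on the second between -0.30 for Cdkn1c and 0.47 for Plagl1.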

How the data were processed

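The authors deposited an expression table of log2(TPM + 1) per gene symbol, and the submitters' processing notes name RSEM and the build mm39. Aligner, annotation, strand and the use of molecular identifiers are not given in the sources used here. A second file is the authors' deposited comparison table, for which the notes name DESeq2. In it the authors gave the mean normalized signal, log2 fold changes with standard errors, scores of the test and p-values, raw and adjusted; its IDs were paired with symbols for 28805 of 30040. Deposited repertoire measures were not used. Genes averaging 1 TPM or more were fitted with limma 3.58.1 (R 4.3.3) on log2(TPM + 1), pseudocount 1 TPM, trended prior, group as the only term, Benjamini-Hochberg at 0.05, after testing on simulated data; tables were joined with Python 3.11.15 and pandas 2.3.3. Alternatives were other pseudocounts, filters, scalings, variance models, weights, a replicate block and each tumor left out; fits without vector tumors 3 and 5 were chosen after seeing the data. The members and lists were chosen with earlier results of these data known. Named genes are the members and the 8 most like Mest by each measure. Of each list they are the called genes, the 4 with the smallest p and the 4 with the highest level. Rian, Klf14, Adipoq, Plin1, Cfd and Fabp4 were named beside them after their values were seen. So were Cd68, Cd163, Fap, Col1a1, Col3a1, Lum, Pdgfra, Thy1 and the genes under other observations. Nothing states that the tumors came from separately made cell populations, so p-values measure the spread between tumors. Promoter and microRNA sequences are RefSeq's on GRCm38.p6, another build than the authors', and serve only as sequence.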

Additional observations from a re-analysis of the deposited data

How the results depend on the processing

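The log2 fold change of Mest stayed between -2.86 and -2.41 in the 11 other settings with several or all tumors and between -2.67 and -2.23 with 1 tumor left out. Mest was past the threshold in 9 of those 11 settings (limma adjusted p from 0.00769 to 0.142) and in 2 of 10 fits without 1 tumor (0.0227 to 0.125). The 189 values of the other 9 members under all settings moved by less than the SD within groups, and 23 of them had the opposite sign. Over all tested genes, 4 were called higher and 30 lower with all tumors. The counts higher were 1 with no filter, 2 with a minimum of 5 TPM, 8 with median-of-ratios scaling and with an untrended prior, 10 with quantile normalization, 263 with array weights and 0 to 170 without 1 tumor. The counts lower were 9 with no filter, 956 with array weights and 5 to 487 without 1 tumor. Without vector tumors 3 and 5 and the tumor labelled Adamts7 5 they were 225 higher and 689 lower, with 1 pathway gene in each direction (Igfbp3 higher, Igf2bp2 lower). Array weights called 1 other imprinted gene, Peg13, and 1 pathway gene, Igf2bp2, lower; no other setting called one (0 in each fit without 1 tumor). The causes were not tested. The median log2 fold change over all tested genes, -0.10, was 0.01 with median-of-ratios scaling and 0.04 with quantile normalization.

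With the replicate block 0 genes were called higher and 0 lower, and Mest kept -2.53 (limma adjusted p = 0.142). Same-numbered tumors deviated with correlations from -0.28 to 0.26, and in 1 of 5 numbers the closest vector tumor had the same number, so the numbers were taken as names. TPM holds no depth, so no counting interval is given for the low genes Igf2, Peg3, Dlk1 and Cdkn1c.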

Other observations

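Snurf was listed at 16.3 TPM in Adamts7 tumor 3 and at 9.98 TPM in vector tumor 5, and at 0 TPM in the other 8 tumors. Snrpn, which shares its transcript with Snurf, was at 0.41 to 2.48 TPM in Adamts7 tumors and 0.38 to 2.35 TPM in vector tumors, and RSEM divides reads between such genes by estimate. Kcnq1, an imprinted potassium channel gene, was at 0.58 to 1.73 TPM in Adamts7 tumors, and in vector tumors at 4.58 TPM in tumor 1 and at 0.35 to 1.06 TPM in the others. Igf1, the ligand related to Igf2, was at 1.51 to 6.14 TPM in Adamts7 tumors, against 52.7 and 27.0 TPM in vector tumors 3 and 5 and 1.40 to 6.05 TPM in the other vector tumors. Igf1 was thus more abundant than Igf2 in every tumor. These genes were picked after their values were seen.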
